A study of Mus musculus with 9 samples.

Results

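Messenger RNA of the integrins, laminins and nidogens was examined in whole lung of mice. The members were the genes whose symbol starts with Itga, or with Itgb, Lama, Lamb or Lamc followed by a digit, together with Nid1 and Nid2. This rule found 43 of the 32671 genes in the deposited table, and all 43 were among the 20794 genes that passed the filter on low counts. They comprised 26 integrin chains, 5 alpha, 3 beta and 3 gamma chains of laminin, and 2 nidogens. The other 4 matched by their letters. Itgb1bp1 encodes a protein that binds the tail of integrin beta1, Itgb1bp2 encodes the muscle protein melusin, Itgb3bp encodes a centromere protein, and Itgb2l encodes a chain similar to integrin beta2.

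Lungs were taken at day 21 from 3 groups of C57BL/6 mice of WT genotype, with 3 libraries in each group. Control mice were given saline. The bleomycin group was challenged with bleomycin, a DNA-damaging drug that is widely used to model lung fibrosis. Mice of the third group, called LNP here, were challenged with bleomycin as well and were given inhalable lipid nanoparticles named mCas9/gSting@DOPS, where Cas9 is a guided DNA-cutting enzyme and gSting names the guide. A group given particles without the guide was not analysed here, so the guide and the particle cannot be told apart. The sources used here do not give the age of the mice or the doses. Whether the 3 samples of a group came from separate animals is not stated in the labels. The p-values therefore set group differences only against the spread among these samples.

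Integrins are receptors made of 1 alpha and 1 beta chain that hold cells to the extracellular matrix or to other cells and pass signals across the membrane. Laminins are cross-shaped trimers of 1 alpha, 1 beta and 1 gamma chain that form the sheet of the basement membrane on which the epithelium and the endothelium rest. Nidogens link the laminin sheet to the collagen IV sheet. In lung, Lama3 and Lamb3 encode chains of a laminin under the epithelium to which integrins containing alpha3 or alpha6 attach, and integrins containing alphaV bind and activate latent TGF-beta. The integrins of white blood cells pair alpha chains such as those of Itgal, Itgam and Itgax with the beta2 chain of Itgb2, and that of Itgae with the beta7 chain of Itgb7.

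Sequences are shown for Itgam and Itgax, because these neighbouring genes differed in how their levels moved and because the transcripts of Itgam differed between groups. In the coordinates of the deposited table (build not given in the sources used here), Itgam lies on chromosome 7 from 127661812 to 127717663 and Itgax from 127728719 to 127749829, both on the plus strand and 11.1 kb apart. The windows below are the 250 bases before the transcript start in RefSeq (GRCm38.p6, plus strand), at chr7:128062390-128062639 for Itgam and chr7:128129300-128129549 for Itgax. Capitals mark GAGGAA, the core letters bound by the myeloid factor PU.1, in the Itgam window, and TGANTCA, the letters bound by AP-1, in the Itgax window.
Itgam: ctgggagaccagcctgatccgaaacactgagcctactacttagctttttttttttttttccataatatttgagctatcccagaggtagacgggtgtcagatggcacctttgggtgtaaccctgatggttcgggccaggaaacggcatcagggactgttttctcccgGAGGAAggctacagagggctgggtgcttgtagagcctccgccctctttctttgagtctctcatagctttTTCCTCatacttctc
Itgax: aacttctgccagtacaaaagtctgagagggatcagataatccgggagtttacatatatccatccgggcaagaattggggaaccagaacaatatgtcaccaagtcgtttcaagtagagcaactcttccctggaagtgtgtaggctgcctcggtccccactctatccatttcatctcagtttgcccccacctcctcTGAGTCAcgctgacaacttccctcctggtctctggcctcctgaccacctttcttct

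Both strands were searched. The Itgam window held GAGGAA 84 bases before the start on the plus strand and 15 bases before it on the minus strand, printed as TTCCTC. The Itgax window held TGANTCA, where N is any base, 56 bases before the start, printed as TGAGTCA. This site matched the pattern on both strands. Among all 32851 windows of this length, 23.3% held GAGGAA, 6.75% held TGANTCA and 12.4% held TATAAA. The table held 30 windows of 27 members, of which 15 held GAGGAA, 1 held TGANTCA and 0 held TATAAA. These matches describe letters in a window and do not show that a factor was bound.

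In GENCODE M21 (GRCm38), the main Itgam transcripts ENSMUST00000064821 and ENSMUST00000106242 have 30 exons each and differ at the start of exon 14, at base 128101634 or 128101637 of chromosome 7, with the same exon end at 128101846. The junction of exons 13 and 14 is printed with 15 bases on each side, and capitals mark the 3 bases that only the first transcript holds. They also differ at their outer ends, with total lengths of 4682 and 4649 bases.
ENSMUST00000064821: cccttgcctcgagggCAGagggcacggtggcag
ENSMUST00000106242: cccttgcctcgagggagggcacggtggcag

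Each library held between 56047830 and 69404903 gene counts. Surfactant and other alveolar type 2 markers, which define lung, summed to 24883 to 33499 counts scaled to library size (CPM) in control libraries and to at least 8074 CPM in any other library. LNP replicate 3 stood apart. Its 11 skeletal muscle markers summed to 10162 CPM, where no other library exceeded 127 CPM, and its basal and squamous markers to 1868 CPM, where no other exceeded 67.0 CPM. Among the members, melusin gene Itgb1bp2 was at 32.4 CPM in this library and at most at 5.04 CPM in the others. LNP replicate 3 lay more than 1.5-fold outside the range of LNP replicates 1 and 2 for 20 of 43 members (46.5%, against 33.9% of all genes tested). It was nearer to the bleomycin mean than both of them for 28 of 43 (65.1%, against 48.3%). Members called in a comparison with the LNP group are therefore also given without it. So are named partner genes, apart from some of their values against control.

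Changes below are log2 fold changes ± SE, and levels are CPM scaled by the trimmed mean of M-values (TMM), as mean ± SD over n = 3 libraries. A member was called where the p-value of edgeR's quasi-likelihood test, adjusted by Benjamini-Hochberg over all genes tested, was under 0.05. The 3 comparisons share libraries, so each is described by its own values. Whole lung is a mixture, in which fewer cells of a type and less RNA per cell cannot be told apart.

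The first comparison asked how these genes differed in lung 21 days after bleomycin. Lamb3 (a laminin chain of the epithelium), integrins that bind fibronectin and latent TGF-beta, and the myeloid integrin gene Itgam rose, whereas the lymphocyte integrin genes Itgal, Itgae and Itgb7 as well as Itga1, Itga8 and Lama4 fell. Of 43 members, 23 were called (53.5%, where 33.7% of all genes tested were called). Higher were 17 (background 15.2%) and lower 6 (background 18.5%). The median log2 fold change was 0.29, against -0.05 over all genes tested, and 29 members had no overlap between the groups (67.4%, background 55.5%). LNP replicate 3 bears on this comparison through the spread that all groups share, and without it 20 were higher and 9 lower, and 42.6% of all genes tested were called.

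The second comparison asked what set LNP lung apart from bleomycin lung. Itgae and Itgb7, which form an integrin of lymphocytes and dendritic cells in epithelium, were higher with the particles, and Itga3, Itga5, Itgav, Itgb3 and Lama2 were among the members that were lower. The 8 called of 43 (18.6%) stand beside 6.16% of all genes tested. The 2 higher members stand beside a background of 4.28% and the 6 lower ones beside 1.87%. The median was -0.13, against 0.04 over all genes, and 18 members had no overlap (41.9%, background 29.9%). Without LNP replicate 3, 22 members were called, 9 higher and 13 lower, and the share of all genes called was 24.7%. All 8 were among the 22. None of the 8 passed in each of the 9 fits that left out 1 library.

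The third comparison set LNP lung against control lung. Itgam, Itgb2, Itgb8, Lama1 and Lamb3 were among the higher members, and Itga8 and Lama4 were lower. The 8 called of 43 (18.6%) stand beside 8.04% of all genes tested, with 6 higher beside 4.95% and 2 lower beside 3.08%. The median was 0.14, against 0.00 over all genes, and 17 members had no overlap (39.5%, background 28.8%). Leaving out LNP replicate 3, 12 were called, 10 higher and 2 lower, and the share of all genes called was 10.9%. Lama1, Lamb3 and Itga8 passed in each of the 9 fits that left out 1 library. In all 3 comparisons together, 19 members were not called.

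**Figure D1:**
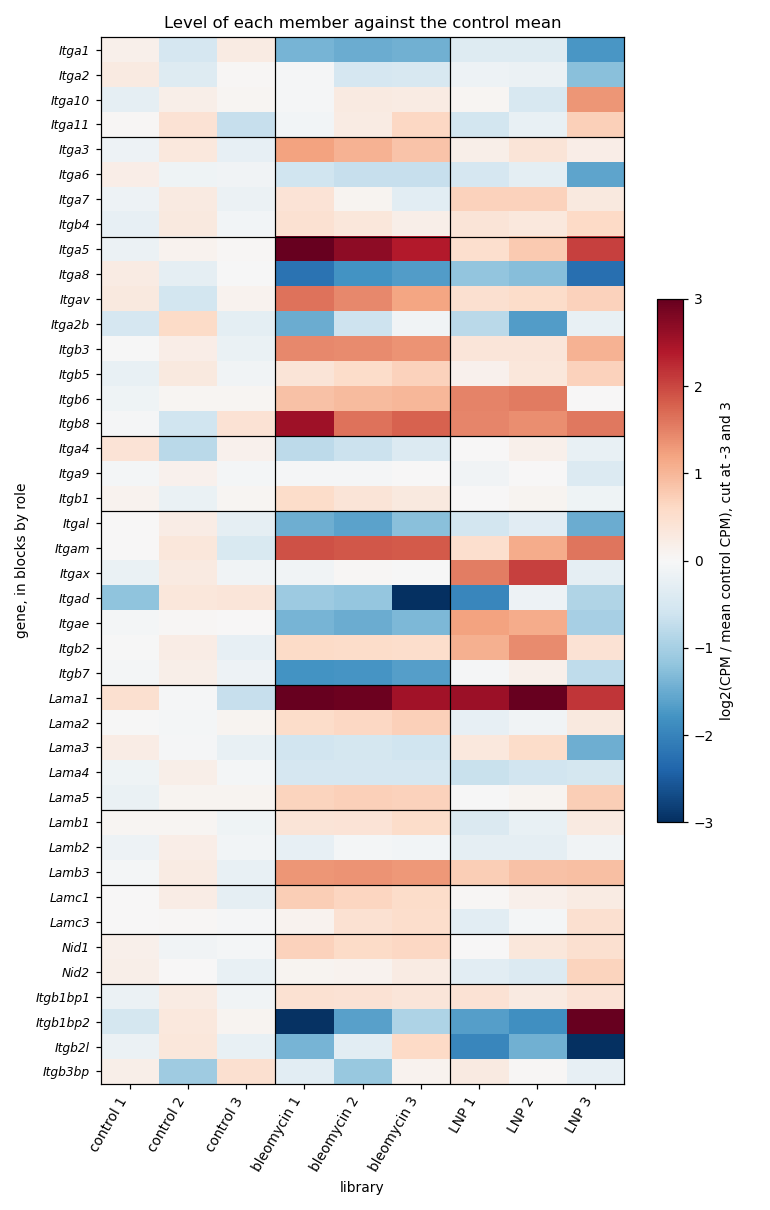
Level of 42 members (rows, in blocks by role) in each of the 9 libraries (columns), as log2 of CPM over the mean control CPM, coloured from -3 (blue) to 3 (red); values beyond these limits take the end colours, among them Itgad in bleomycin replicate 3, which was at 0. Lama1 and Itga5 are red in all 3 bleomycin libraries, and LNP replicate 3 differs in colour from LNP replicates 1 and 2 for Itgax, Itgb6, Itgae and Lama3.

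**Figure D2:**
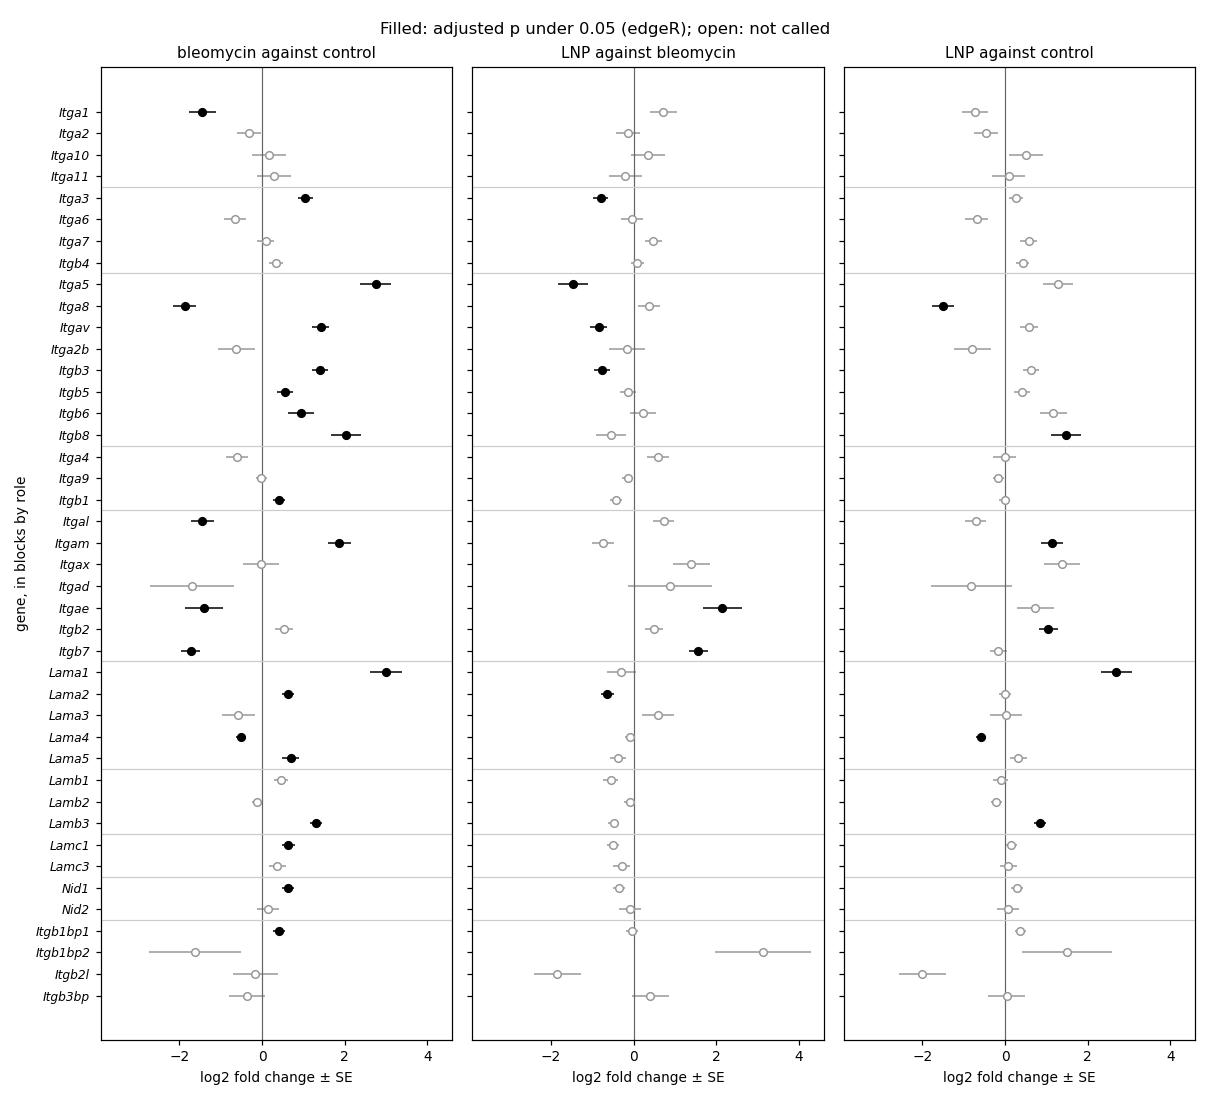
Log2 fold change ± SE of 42 members in the 3 comparisons (panels), with filled points at an adjusted p under 0.05 in edgeR and open points not called. After bleomycin 16 of these points lie filled to the right and 6 to the left, and LNP against bleomycin has 2 and 5.

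Lamb3, which encodes the beta3 chain of the epithelial laminin, was at 124, 152 and 110.4 CPM in control, 321, 326 and 316 CPM in bleomycin and 214, 236 and 241 CPM in LNP libraries. The 3 groups had no overlap, and the LNP libraries lay between the others. The rise after bleomycin was 1.31 ± 0.14 (adjusted p = 0.00028), and LNP lung was 0.84 ± 0.14 above control (adjusted p = 0.0068; 0.84 and 0.0041 without LNP replicate 3). The difference of LNP from bleomycin, -0.48 ± 0.14, was not called (adjusted p = 0.073) and was called without LNP replicate 3 (-0.51, adjusted p = 0.027).

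Lama3, the alpha3 chain of the same laminin, was not called in any comparison and is given as a partner of Lamb3, after its values were seen. It was at 122, 102 and 89.9 CPM in control, 69.9, 72.9 and 69.1 CPM in bleomycin and 129, 153 and 37.6 CPM in LNP libraries. All bleomycin libraries lay below all control libraries, while LNP replicates 1 and 2 were above every other library and LNP replicate 3 below every other library. The log2 fold change after bleomycin was -0.57 ± 0.39 (adjusted p = 0.29). Without LNP replicate 3, Lama3 was lower in bleomycin than in control (-0.53, adjusted p = 0.0079) and higher in LNP than in bleomycin lung (1.00, adjusted p = 0.00097). Markers of the transitional state of injured alveolar epithelium moved with Lamb3. All 10 rose after bleomycin, and they summed to 1268 to 1876 CPM in control, 4079 to 5679.6 CPM in bleomycin and 2415 to 3201 CPM in LNP libraries. Alveolar type 2 markers, of which 7 of 10 fell, summed to 9258 to 10956 CPM in bleomycin libraries, to 23579 and 19588 CPM in LNP replicates 1 and 2 and to 8074 CPM in LNP replicate 3. The part of these cells in the laminin values was not tested.

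Lama1 encodes the alpha1 chain, which is typical of embryonic basement membranes. The control libraries had 3.69, 2.56 and 1.63 CPM, the bleomycin libraries 27.6, 20.1 and 15.1 CPM and the LNP libraries 15.5, 23.9 and 11.6 CPM. Every bleomycin and LNP library was above every control library, and bleomycin and LNP libraries overlapped. Lama1 rose 7.97-fold after bleomycin (3.00 ± 0.38, adjusted p = 0.00057), the largest fold change of the 43 members in this comparison, and was 2.69 ± 0.38 higher in LNP than in control lung (adjusted p = 0.0036; 2.95 and 0.00087 without LNP replicate 3). LNP and bleomycin differed by -0.30 (95% interval -1.08 to 0.48, adjusted p = 0.64).

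Lama2, the alpha2 chain known from muscle and mesenchyme, was at 62.2, 60.1 and 66.3 CPM in control, 92.5, 97.2 and 103 CPM in bleomycin and 52.9, 58.1 and 77.5 CPM in LNP libraries. The bleomycin libraries were above all others. The rise after bleomycin was 0.63 ± 0.15 (adjusted p = 0.011). LNP lung was 0.63 ± 0.15 below bleomycin on the log2 scale (log2 fold change -0.63, adjusted p = 0.04), which passed only with all libraries, without control replicate 2 or without LNP replicate 3 (-0.81, adjusted p = 0.0011) and reached 0.15 otherwise.

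Lama4, the alpha4 chain of endothelial basement membranes, was at 114, 139 and 118 CPM in control, 87.2, 87.1 and 87.5 CPM in bleomycin and 78.7, 82.8 and 86.4 CPM in LNP libraries. All bleomycin and LNP libraries were below the control range. It fell by 0.51 on the log2 scale after bleomycin (SE 0.12, adjusted p = 0.0091) and was 0.59 lower in LNP than in control lung (log2 fold change -0.59 ± 0.12, adjusted p = 0.015; -0.58 and 0.013 without LNP replicate 3), a call lost without LNP replicate 2 (adjusted p = 0.054). Capillary and venous endothelial markers fell in 7 of 12 cases after bleomycin and rose in 2, summing to 6484 to 7240.0 CPM in control, 5117 to 5349 CPM in bleomycin and 3651 to 5222 CPM in LNP libraries. Their part in the Lama4 values was not tested.

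Lama5, the alpha5 chain found in most adult basement membranes, was at 149.8, 184 and 183 CPM in control, 272, 281 and 279.5 CPM in bleomycin and 170.3, 183 and 289 CPM in LNP libraries. LNP replicates 1 and 2 were within the control range and LNP replicate 3 above every bleomycin library. Lama5 rose by 0.69 ± 0.20 after bleomycin (adjusted p = 0.023), and the call was lost (adjusted p up to 0.089) without control replicate 1 or 3 or any 1 bleomycin library. Without LNP replicate 3 it was lower in LNP lung than in bleomycin lung (-0.65, adjusted p = 0.0048), where the value with all libraries was -0.38 ± 0.20 (adjusted p = 0.27).

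Lamc1 encodes gamma1, the gamma chain of most laminins. It was at 259, 301 and 216 CPM in control, 429, 406 and 378 CPM in bleomycin and 264, 289 and 306 CPM in LNP libraries. The bleomycin libraries were above all others, and LNP overlapped with control. The rise after bleomycin was 0.64 ± 0.15 (adjusted p = 0.0087). LNP differed from bleomycin by -0.50 ± 0.15 (adjusted p = 0.074), and by -0.54 without LNP replicate 3 (adjusted p = 0.023). Lamb1, Lamb2 and Lamc3 were not called with all libraries. Lamb1 averaged 164 ± 12.3 CPM in control, 225 ± 13.9 in bleomycin and 154 ± 40.8 in LNP lung. Lamb2 averaged 289 ± 38.2, 265 ± 17.7 and 249 ± 14.9 CPM in the same order, and Lamc3 averaged 23.2 ± 0.594, 30.0 ± 4.6 and 24.5 ± 7.21 CPM. Without LNP replicate 3, Lamb1 and Lamc3 were higher after bleomycin (0.49 and 0.41, adjusted p = 0.0049 and 0.043) and lower in LNP lung than in bleomycin lung (-0.78 and -0.55, adjusted p = 0.0018 and 0.033).

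Nid1, the more abundant nidogen, was at 164, 139 and 142 CPM in control, 239, 222 and 229 CPM in bleomycin and 149, 187 and 205 CPM in LNP libraries. Every bleomycin library was above every other library. It rose by 0.63 ± 0.14 after bleomycin (adjusted p = 0.0083), and LNP differed from bleomycin by -0.35 ± 0.14 (adjusted p = 0.16), or -0.45 without LNP replicate 3 (adjusted p = 0.034). Nid2 was not called and averaged 14.1 ± 2.01 CPM in control, 15.6 ± 1.05 in bleomycin and 14.8 ± 6.50 in LNP lung, with 22.3 CPM in LNP replicate 3.

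**Figure D3:**
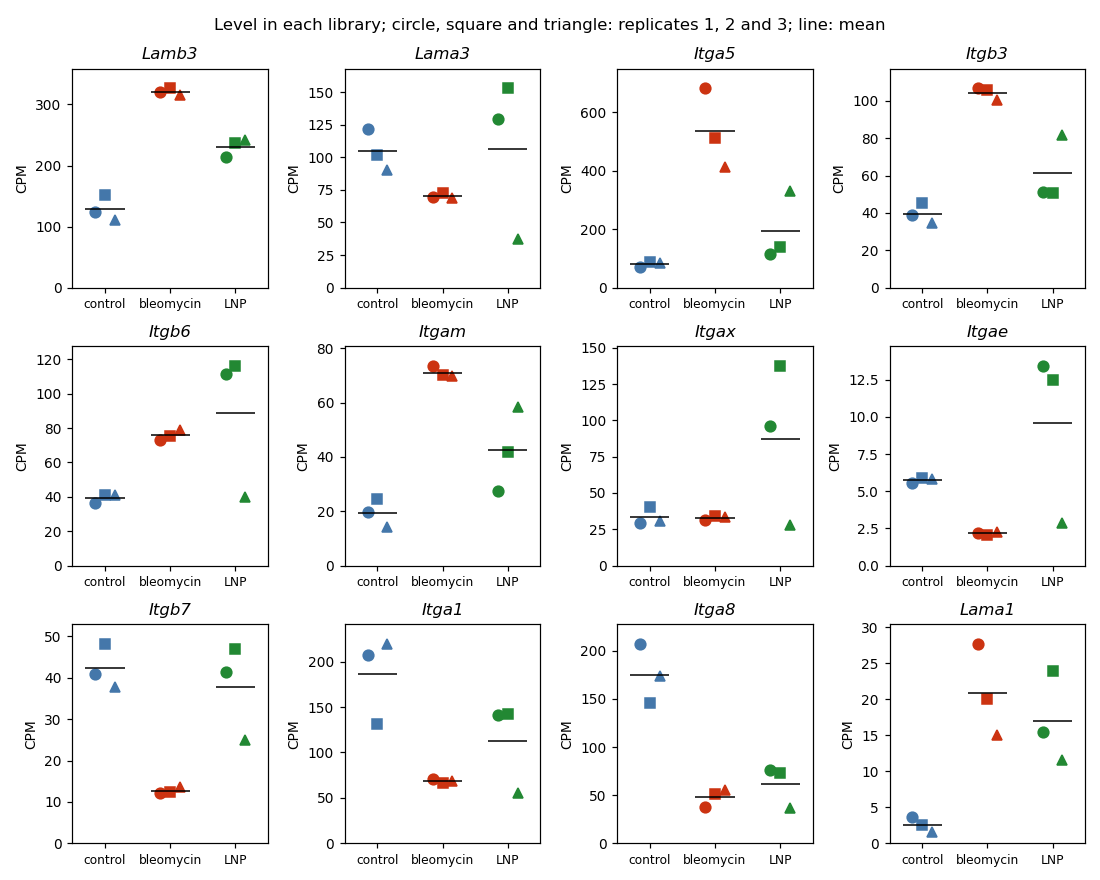
CPM of 12 members in every library, by group on the horizontal axis, with circles, squares and triangles for replicates 1, 2 and 3 and a line at the group mean; each vertical axis starts at 0. Lamb3, Itga5, Itgb3 and Itgam have no overlap between the 3 groups, and for Lama3, Itgb6, Itgax, Itgae, Itgb7 and Itga1 the LNP triangle lies far below the other LNP points.

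Levels of different genes were compared in FPKM, which divides by gene length. Among beta chains, Lamb2 led in control with 43.5 ± 3.86 FPKM against 17.9 ± 2.20 FPKM for Lamb3. In bleomycin lung Lamb3 at 42.6 ± 1.87 FPKM and Lamb2 at 38.3 ± 4.12 FPKM had overlapping SDs, and in LNP lung Lamb2 at 39.0 ± 1.82 FPKM was ahead of Lamb3 at 33.2 ± 1.92 FPKM. Lama5 had the highest mean FPKM of the alpha chains in all 3 groups, with 13.9 ± 1.44, 21.4 ± 1.32 and 17.9 ± 5.17 FPKM, and Lama1 the lowest, with at most 1.88 FPKM. Nid1 made up 88.7% to 91.6% of the summed nidogen FPKM. With LNP replicate 3 left out, Lama5 with 14.9 FPKM and Lamb2 with 37.97 FPKM led their classes in LNP lung as well. These orders describe group means and were not tested.

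Of the integrins that bind laminin, only Itga3 was called. Itga3 encodes alpha3, a receptor chain for the epithelial laminin. It was at 326, 450.5 and 305 CPM in control, 837, 746 and 651 CPM in bleomycin and 405, 474 and 417 CPM in LNP libraries. The bleomycin libraries were above all others, and LNP libraries overlapped with control. Itga3 rose by 1.05 ± 0.18 after bleomycin (adjusted p = 0.0021) and was lower in LNP lung than in bleomycin lung (-0.79 ± 0.18, adjusted p = 0.032; -0.76 and 0.015 without LNP replicate 3). The latter call was lost, with an adjusted p of up to 0.13, without control replicate 1, bleomycin replicate 1 or 2 or LNP replicate 1 or 2. Itga6 averaged 197 ± 26.2 CPM in control, 125 ± 5.27 in bleomycin and 122 ± 49.7 in LNP lung, with no overlap between control and bleomycin and no call (-0.66 ± 0.27, adjusted p = 0.087; called at 0.0021 without LNP replicate 3). Its partner Itgb4, the beta chain of hemidesmosomes, averaged 34.1 ± 6.70, 43.1 ± 4.18 and 46.0 ± 4.64 CPM, and Itga7, known from muscle, 29.2 ± 5.37, 31.0 ± 7.60 and 43.4 ± 6.64 CPM.

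Of 8 integrin chains that recognise the Arg-Gly-Asp motif of fibronectin, vitronectin or latent TGF-beta, 6 rose after bleomycin and 1, Itga8, fell, where 15.2% and 18.5% of all genes tested did so. Itga5 encodes the alpha chain of the main fibronectin receptor. It was at 70.7, 86.3 and 82.4 CPM in control, 681, 513 and 414 CPM in bleomycin and 114, 137 and 331 CPM in LNP libraries. The 3 groups had no overlap, and LNP replicate 3 lay far above the other 2 LNP libraries. Itga5 rose 6.71-fold after bleomycin (2.75 ± 0.38, adjusted p = 0.00084) and was lower in LNP lung than in bleomycin lung (-1.46 ± 0.37, adjusted p = 0.047). Leaving out LNP replicate 3 gave -2.09 (adjusted p = 0.00016), and leaving out any other single library lost the call, with an adjusted p of up to 0.17. Against control, LNP lung was at 1.28 ± 0.36 (adjusted p = 0.061), and at 0.69 without LNP replicate 3 (adjusted p = 0.047).

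Itgav encodes alphaV, the partner of beta3, beta5, beta6 and beta8. It was at 37.7, 20.9 and 32.9 CPM in control, 94.0, 82.2 and 69.1 CPM in bleomycin and 42.7, 45 and 49.3 CPM in LNP libraries. The 3 groups did not overlap. The rise after bleomycin was 1.42 ± 0.21 (adjusted p = 0.0012), and LNP differed from bleomycin by -0.84 ± 0.21 (adjusted p = 0.046; -0.89 and 0.019 without LNP replicate 3). Leaving out any 1 library other than control replicate 2 or LNP replicate 3 lost that call, with an adjusted p of up to 0.18.

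Itgb3, the beta3 chain of the vitronectin receptor and of platelets, was at 39.1, 45.1 and 34.3 CPM in control, 107, 106 and 101 CPM in bleomycin and 51.3, 50.7 and 81.5 CPM in LNP libraries. Again no group overlapped with another. Itgb3 rose by 1.40 ± 0.20 after bleomycin (adjusted p = 0.00084) and was lower in LNP lung than in bleomycin lung (-0.77 ± 0.19, adjusted p = 0.047; -1.03 and 0.00063 without LNP replicate 3). This call too was lost without any 1 library other than control replicate 2 or LNP replicate 3, with an adjusted p of up to 0.16. Itga2b, which pairs with beta3 on platelets, averaged 35.2 ± 14.9 CPM in control, 22.9 ± 10.2 in bleomycin and 20.4 ± 9.63 in LNP lung, with no call. Platelet and megakaryocyte markers fell in 5 of 10 cases after bleomycin and rose in 1, summing to 65.3 to 119.6 CPM in control, 38.2 to 48.2 CPM in bleomycin and 30.6 to 49.6 CPM in LNP libraries.

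Itgb5, beta5, was at 182, 259 and 196 CPM in control, 278, 310.5 and 344 CPM in bleomycin and 232, 268 and 344 CPM in LNP libraries. Bleomycin libraries were above control libraries, and LNP libraries overlapped with both. The rise after bleomycin was 0.55 ± 0.19 (adjusted p = 0.047), and it was lost, with an adjusted p of up to 0.16, without control replicate 1 or 3, any 1 bleomycin library or LNP replicate 2. LNP and bleomycin differed by -0.14 ± 0.19 (adjusted p = 0.68).

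Itgb6 encodes beta6, the epithelial chain that with alphaV activates TGF-beta. It was at 36.1, 40.8 and 41.3 CPM in control, 73.0, 75.5 and 78.7 CPM in bleomycin and 111, 116 and 39.6 CPM in LNP libraries. LNP replicates 1 and 2 lay above every bleomycin library, and LNP replicate 3 was at the control level. Itgb6 rose by 0.94 ± 0.32 after bleomycin (adjusted p = 0.047), a call lost, with an adjusted p of up to 0.13, without any 1 control or bleomycin library. Against control, LNP lung was at 1.17 ± 0.32 (adjusted p = 0.055), and at 1.57 without LNP replicate 3 (adjusted p = 5.8e-05). Against bleomycin, LNP lung was at 0.23 (95% interval -0.48 to 0.94, adjusted p = 0.71), and at 0.59 without LNP replicate 3 (adjusted p = 0.0047). With that library left out, Itgb6 and Lama3 were higher in LNP lung than in bleomycin lung while Itga5, Itgav and Itgb3 were lower. Itgb8, the beta8 chain, was low, averaging 0.614 ± 0.210 CPM in control, 2.52 ± 0.915 in bleomycin and 1.72 ± 0.122 in LNP lung. It rose after bleomycin (2.03 ± 0.37, adjusted p = 0.0032) and was higher in LNP than in control lung (1.48 ± 0.37, adjusted p = 0.037; 1.46 and 0.039 without LNP replicate 3). The latter call held without bleomycin replicate 1 or LNP replicate 3 and was lost without any other library, with an adjusted p of up to 0.13.

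Itga8 encodes alpha8, a chain of fibroblasts and other contractile cells that binds nephronectin. It was at 207, 146 and 174 CPM in control, 37.7, 50.9 and 55.2 CPM in bleomycin and 76.7, 72.9 and 36.8 CPM in LNP libraries. All bleomycin and LNP libraries were below all control libraries. Itga8 fell 3.66-fold after bleomycin (-1.87 ± 0.28, adjusted p = 0.0012) and was lower in LNP than in control lung (-1.5 ± 0.27, adjusted p = 0.01; -1.19 and 0.0039 without LNP replicate 3). LNP exceeded bleomycin by 0.37 (95% interval -0.23 to 0.98, adjusted p = 0.43), and by 0.65 without LNP replicate 3 (adjusted p = 0.029).

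Of the chains that bind collagen, Itga1 alone was called. Itga1, alpha1, was at 208, 131 and 219 CPM in control, 70.7, 66.1 and 68.7 CPM in bleomycin and 142, 142 and 55.5 CPM in LNP libraries. The bleomycin libraries were below every control library, and LNP replicate 3 was lower still. It fell 2.72-fold after bleomycin (-1.44 ± 0.33, adjusted p = 0.0089). LNP differed from bleomycin by 0.72 (95% interval 0.00 to 1.45, adjusted p = 0.2), and by 1.05 without LNP replicate 3 (adjusted p = 0.0034). Itga2, the alpha2 chain, averaged 21.0 ± 4.52, 16.8 ± 3.20 and 15.4 ± 5.71 CPM in control, bleomycin and LNP lung, and Itga10 and Itga11 averaged at most 3.37 CPM in any group. Fibroblast markers fell in 4 and rose in 3 of 10 cases after bleomycin, and summed to 4330.2 to 5526 CPM in control, 6547 to 6797 CPM in bleomycin and 4382 to 5457 CPM in LNP libraries. Smooth muscle and pericyte markers fell in 3 and rose in 1 of 10, with 1727 to 2254, 2119.9 to 2317 and 1188 to 2838 CPM in the same order. The part of these cells, and of the endothelium described above, in the Itga1 and Itga8 values was not tested.

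Itgb1, beta1, is the partner of most alpha chains that bind matrix. It was at 790.3, 643 and 771 CPM in control, 1076, 959 and 895 CPM in bleomycin and 746, 772 and 671 CPM in LNP libraries. Bleomycin libraries were above all others. The rise of 0.41 ± 0.14 (adjusted p = 0.045) held in 1 of the 9 fits that left out a library, the one without LNP replicate 3 (0.44, adjusted p = 0.013), and reached 0.16 in the others. LNP differed from bleomycin by -0.42 ± 0.14 (adjusted p = 0.1; -0.36 and 0.077 without LNP replicate 3). Itgb1bp1, whose product binds the beta1 tail, was at 24.0, 32.1 and 25.1 CPM in control, 36.9, 36.3 and 34.8 CPM in bleomycin and 36.3, 32.7 and 36.0 CPM in LNP libraries. Every bleomycin and LNP library was above every control library. Its rise of 0.41 ± 0.14 after bleomycin (adjusted p = 0.045) passed without control replicate 2 or LNP replicate 3 only, and reached 0.16 without other libraries. Itga4 averaged 20.7 ± 8.07, 13.6 ± 1.79 and 20.5 ± 2.57 CPM and Itga9 97.5 ± 7.21, 96.0 ± 1.62 and 87.1 ± 12.6 CPM in control, bleomycin and LNP lung, with no call.

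By FPKM, Itgb1 was first of the 26 integrin chains in every group, with means of 166 ± 24.5 in control, 209.7 ± 9.77 in bleomycin and 171 ± 14.5 in LNP lung. Itga5 was in rank 7 in control with 14.9 ± 1.24 FPKM, in rank 3 in bleomycin with 94.6 ± 19.3 FPKM and in rank 5 in LNP lung with 37.3 ± 22.4 FPKM. The LNP libraries had 22.1, 26.8 and 63.0 FPKM of Itga5, and without LNP replicate 3 the mean was 24.5 FPKM, again in rank 5. In bleomycin lung its 76.7 to 115 FPKM overlapped with the 104 to 122 FPKM of Itga3. Itga3 was second in control with 57.8 ± 9.91 FPKM and in bleomycin with 114 ± 9.08 FPKM, and its range overlapped with that of Itgb5 in control and LNP lung. In LNP lung the mean of Itgb5 was above that of Itga3, and without LNP replicate 3 this order turned, with 73.97 FPKM for Itga3 and 67.6 FPKM for Itgb5. Itgb2 had 26.7 ± 3.36, 37.3 ± 1.21 and 57.1 ± 19.0 FPKM in control, bleomycin and LNP lung.

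The leukocyte integrins split after bleomycin, with Itgam higher and Itgal, Itgae and Itgb7 lower. Itgam encodes alphaM (CD11b) of macrophages, monocytes and neutrophils. It was at 19.5, 24.6 and 14.1 CPM in control, 73.4, 70.2 and 69.7 CPM in bleomycin and 27.4, 41.8 and 58.6 CPM in LNP libraries. The 3 groups did not overlap. Itgam rose 3.67-fold after bleomycin (1.87 ± 0.28, adjusted p = 0.0011). LNP lung was 1.13 ± 0.27 above control (adjusted p = 0.032; 0.87 and 0.037 without LNP replicate 3), a call lost, with an adjusted p of up to 0.12, without control replicate 1 or 3, any 1 bleomycin library or LNP replicate 2. LNP differed from bleomycin by -0.74 ± 0.27 (adjusted p = 0.12), and by -1.03 without LNP replicate 3 (adjusted p = 0.012).

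Itgax, the neighbour of Itgam that encodes alphaX (CD11c) of dendritic cells and alveolar macrophages, was not called with all libraries and is given as its neighbour, after its values were seen. It was at 29.0, 40.0 and 31.0 CPM in control, 31.1, 34.3 and 33.3 CPM in bleomycin and 96.2, 137 and 27.7 CPM in LNP libraries. LNP replicates 1 and 2 were above every other library, and LNP replicate 3 was below them all. After bleomycin the log2 fold change was -0.02 ± 0.43 (adjusted p = 0.98). LNP differed from bleomycin by 1.40 ± 0.44 (adjusted p = 0.087), and by 1.83 without LNP replicate 3 (adjusted p = 0.00015). Itgad, which lies 3.72 kb beyond Itgax, averaged at most 0.487 CPM in any group and was at 0 in bleomycin replicate 3.

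Itgb2, the beta2 partner of these chains, was at 87.8, 104 and 74.6 CPM in control, 131, 130.4 and 127 CPM in bleomycin and 187, 238 and 121 CPM in LNP libraries. All bleomycin and LNP libraries were above all control libraries. After bleomycin it was at 0.54 ± 0.22 (adjusted p = 0.087), and called without LNP replicate 3 (0.58, adjusted p = 0.0078). LNP lung was 1.04 ± 0.23 above control (adjusted p = 0.022; 1.30 and 0.00084 without LNP replicate 3), a call lost without control replicate 1 or 3 or LNP replicate 2, with an adjusted p of up to 0.096. Against bleomycin, LNP lung was at 0.49 ± 0.22 (adjusted p = 0.21), and at 0.72 without LNP replicate 3 (adjusted p = 0.0081). Monocyte-derived macrophage markers moved beside Itgam. Of 12, 10 rose and 1 fell after bleomycin, and they summed to 1279.7 to 1743 CPM in control, 9332 to 9904 CPM in bleomycin and 4337, 6039 and 11754 CPM in LNP replicates 1, 2 and 3. Much of these sums was the fibronectin gene Fn1, also an integrin ligand described below. It averaged 439 ± 74.1 CPM in control, 4613 ± 135 in bleomycin and 2207 ± 853 in LNP lung. Neutrophil markers rose in 5 of 10 cases and were lower in LNP lung than in bleomycin lung in 6, with sums of 162 to 227 CPM in control, 334 to 761 CPM in bleomycin and 71.0 to 109.8 CPM in LNP libraries. Their part in the Itgam and Itgb2 values was not tested.

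Itgal, alphaL of the lymphocyte integrin LFA-1, was at 55.0, 63.3 and 45.3 CPM in control, 19.7, 18.0 and 22.7 CPM in bleomycin and 37.2, 43.2 and 19.4 CPM in LNP libraries. LNP replicates 1 and 2 lay between the groups and LNP replicate 3 within the bleomycin range. Itgal fell by 1.44 on the log2 scale after bleomycin (SE 0.27, adjusted p = 0.0034). LNP differed from bleomycin by 0.73 ± 0.26 (adjusted p = 0.13), and by 1.00 without LNP replicate 3 (adjusted p = 0.0023).

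Itgb7, the beta7 chain of lymphocytes and dendritic cells, was at 40.9, 48.0 and 37.8 CPM in control, 12.3, 12.3 and 13.5 CPM in bleomycin and 41.3, 46.9 and 25.0 CPM in LNP libraries. LNP replicates 1 and 2 were within the control range, and LNP replicate 3 lay between control and bleomycin. It fell 3.32-fold after bleomycin (-1.73 ± 0.22, adjusted p = 0.00057). LNP lung was 2.97-fold above bleomycin (1.57 ± 0.22, adjusted p = 0.0076; 1.80 and 5.3e-05 without LNP replicate 3), which passed in 8 of 9 fits that left out a library and missed at 0.055 without bleomycin replicate 2. LNP and control differed by -0.16 ± 0.21 (adjusted p = 0.7).

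Itgae encodes alphaE (CD103), which with beta7 binds E-cadherin. It was at 5.56, 5.90 and 5.85 CPM in control, 2.18, 2.05 and 2.27 CPM in bleomycin and 13.4, 12.5 and 2.87 CPM in LNP libraries. LNP replicates 1 and 2 were above every control library, and LNP replicate 3 was near the bleomycin level. The fall after bleomycin was -1.41 ± 0.46 (adjusted p = 0.039) and was lost, with an adjusted p of up to 0.11, without any 1 control or bleomycin library. LNP lung was 2.15 ± 0.47 above bleomycin (adjusted p = 0.03; 2.58 and 2.9e-05 without LNP replicate 3), a call lost, with an adjusted p of up to 0.12, without any 1 library other than control replicate 2 or LNP replicate 3. T and NK cell markers moved beside these chains, as all 13 fell after bleomycin and 10 were higher in LNP lung than in bleomycin lung. They summed to 137 to 142 CPM in control, 22.5 to 25.1 CPM in bleomycin and 106, 118 and 78.1 CPM in LNP replicates 1, 2 and 3. Of 9 dendritic cell markers, 7 fell and 1 rose after bleomycin and 4 were higher in LNP lung than in bleomycin lung, with sums of 104 to 125, 63.3 to 66.1 and 73.0 to 116 CPM. In the fit without LNP replicate 3, 6 of them were higher and 1 lower in LNP lung than in bleomycin lung, where 24.7% of all genes tested were called. B cell and plasma cell markers also moved, as 9 of 10 fell after bleomycin and all 10 were higher in LNP lung than in bleomycin lung, the same counts without LNP replicate 3. Their sums were 256 to 413 CPM in control, 77.4 to 85.3 CPM in bleomycin and 582 to 714 CPM in LNP libraries. Of 10 alveolar macrophage markers, 2 rose and 4 fell after bleomycin, with a median log2 fold change of -0.69. In LNP lung 1 was higher and 1 lower than in bleomycin lung, and without LNP replicate 3 these were 5 and 2. The 10 markers summed to 572 to 601 CPM in control, 1005 to 1212 CPM in bleomycin and 484, 382 and 517 CPM in LNP replicates 1, 2 and 3. The sum after bleomycin thus rose while the median marker fell. The part of these cells in the Itgal, Itgb7, Itgae and Itgax values was not tested.

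**Figure D4:**
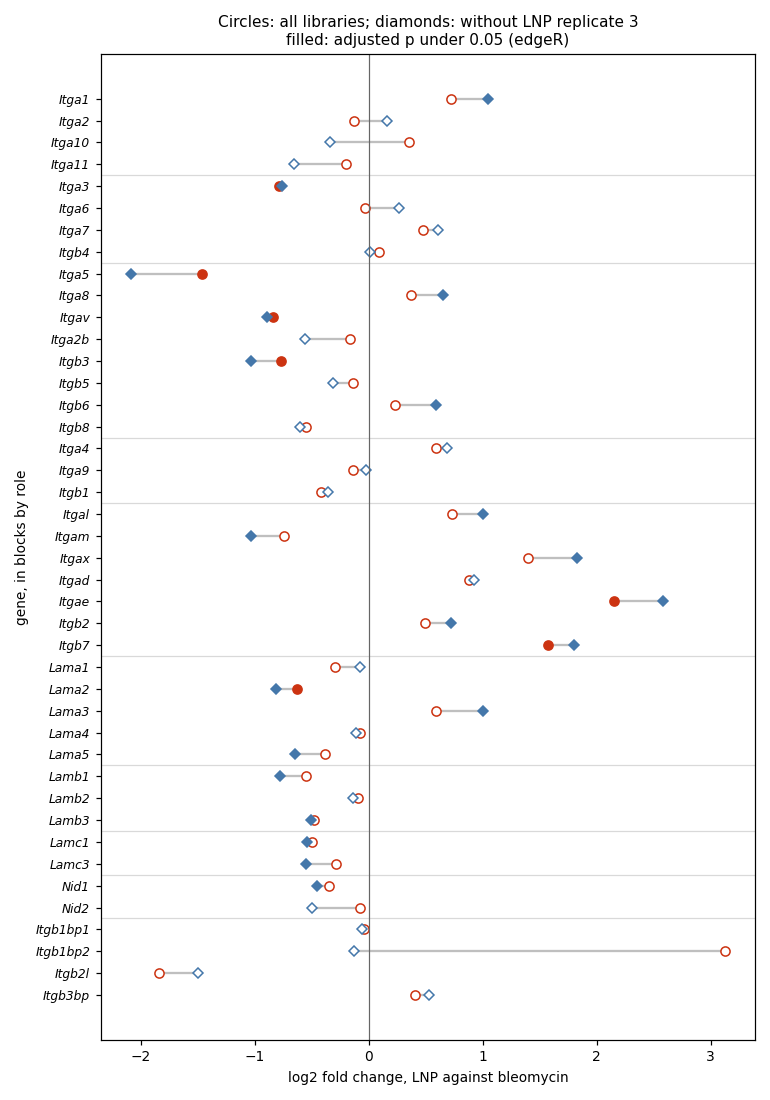
Log2 fold change of 42 members for LNP against bleomycin with all libraries (circles) and without LNP replicate 3 (diamonds), filled at an adjusted p under 0.05 in edgeR. With all libraries 7 of these are filled and without LNP replicate 3 there are 21, and Itgb1bp2 shows the widest gap between its circle and its diamond.

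Transcripts were tested singly, and their deposited counts are estimates whose derivation is not stated. Of 97 transcripts of members tested, 16 were higher and 3 lower after bleomycin (6.37% of all 46941 transcripts tested were called). None was called for LNP against bleomycin in edgeR with all libraries (background 0.173%), and no other tool was run on transcripts. An unadjusted p under 0.05 was found for 20 of the 97. The share of all transcripts at that looser threshold was not counted, so the 0.173% is no background for the 20. In LNP lung 5 were higher than in control lung (background 0.618%). With LNP replicate 3 left out, 6 were higher and 6 lower in LNP lung than in bleomycin lung, where 2.8% of all transcripts tested were called.

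The Itgam transcripts shown above differed in share between groups, a pattern singled out after the values were seen. ENSMUST00000064821, which holds the 3 extra bases, had 49.3%, 44.4% and 56.5% of the Itgam counts in control libraries, 53.0%, 45.9% and 55.5% in bleomycin libraries and 10.7%, 11.8% and 18.1% in LNP libraries. All LNP libraries, LNP replicate 3 included, lay below all others, while control and bleomycin overlapped. The mean shares were 50.1% ± 6.09, 51.5% ± 4.97 and 13.5% ± 3.98 (SD, n = 3). An exact permutation test gave p = 0.1 for LNP against either group, the smallest value that 3 against 3 libraries allow. Such shares can swing within a group. Itgal transcript ENSMUST00000117762 had 86.3%, 70.6% and 41.0% in bleomycin libraries, whereas Itga6 transcript ENSMUST00000028522 had 46.9%, 44.0% and 47.0%. Itgam transcript ENSMUST00000064821 was at 9.33 ± 1.47 CPM in control, 36.8 ± 3.86 in bleomycin and 6.18 ± 3.75 in LNP lung. Itgam transcript ENSMUST00000106242 was at 9.57 ± 3.62, 34.5 ± 3.46 and 36.6 ± 10.5 CPM in the same order. Both Itgam transcripts rose after bleomycin (1.98 ± 0.42 and 1.85 ± 0.33, adjusted p = 0.036 and 0.022). For LNP against bleomycin the former was at -2.58 ± 0.43 (adjusted p = 0.098) and the latter at 0.08 ± 0.32 (adjusted p = 0.96), neither called. Among 9 member genes with at least 2 transcripts at 10% or more of their counts, Itgam was the only one with LNP shares outside those of the other 6 libraries. Of all 6424 tested genes with such transcripts and no library at 0, 242 (3.77%) had an LNP share outside the other 6 libraries in the same way. Reads on 3 bases and on the outer ends decide between the transcripts, and how the authors assigned them was not tested.

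**Figure D5:**
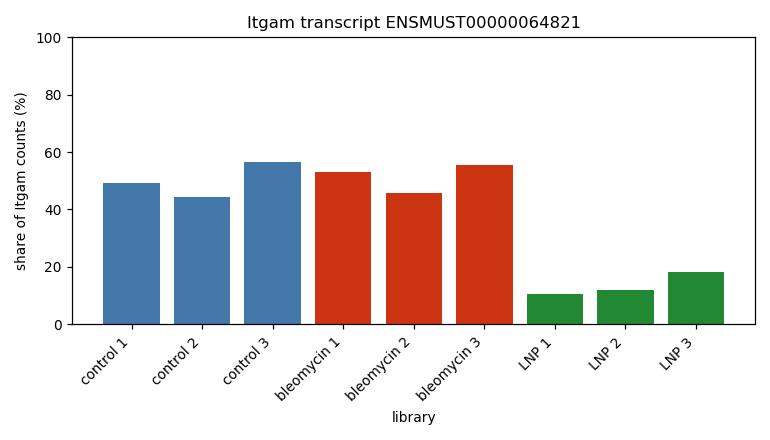
Share of Itgam counts (percent, vertical axis from 0 to 100) assigned to transcript ENSMUST00000064821 in each library, with bars coloured by group. The control and bleomycin bars lie between 44.4% and 56.5% and the LNP bars between 10.7% and 18.1%.

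Partner genes of the basement membrane, from a list of 18, were higher after bleomycin in 10 cases and lower in 4 (background 15.2% and 18.5%). Their median log2 fold change was 0.59. The 4 with the smallest p were Sparc, a matrix-binding glycoprotein gene, Col15a1, Col4a1 and Col4a2. Col4a1 and Col4a2 encode the collagen IV chains of all basement membranes. Col4a1 went from 961 ± 84.5 to 2905 ± 264 CPM (1.60 ± 0.15, adjusted p = 0.00015) and Col4a2 from 944 ± 119 to 2811 ± 134 CPM (1.57 ± 0.16, adjusted p = 0.00024). Sparc rose by 1.69 ± 0.15 (adjusted p = 0.00012) and Col15a1 by 1.89 ± 0.17 (adjusted p = 0.00014). In LNP lung Sparc was lower than in bleomycin lung (-0.58 ± 0.14, adjusted p = 0.046; -0.65 and 0.0065 without LNP replicate 3), whereas Col4a1, Col4a2 and Col15a1 were at -0.53, -0.61 and -0.55 without a call (adjusted p = 0.058, 0.054 and 0.079). Those 3 were lower without LNP replicate 3 (-0.51, -0.73 and -0.61, adjusted p = 0.027, 0.0051 and 0.033). In that comparison 1 of 18 was higher and 3 were lower (background 4.28% and 1.87%). Without LNP replicate 3 these were 6 and 6, where 24.7% of all genes tested were called. Against control, 5 were higher and 1 lower in LNP lung (background 4.95% and 3.08%). Without LNP replicate 3 these were 8 and 1, where 10.9% of all genes were called. Among the 5 were Sparc, Col15a1, Col4a1 and Col4a2 (1.11, 1.34, 1.06 and 0.97, adjusted p = 0.0026, 0.0023, 0.0031 and 0.0066). The last 3 gave 1.32, 1.12 and 0.88 without LNP replicate 3 (adjusted p = 0.0014, 0.0011 and 0.003).

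Of 15 integrin ligands, 9 rose and 2 fell after bleomycin (background 15.2% and 18.5%), with a median of 0.55. Fn1, fibronectin, the ligand of integrins with alpha5, went from 439 ± 74.1 to 4613 ± 135 CPM (3.39 ± 0.28, adjusted p = 9.6e-05) and was 2207 ± 853 CPM in LNP lung (-1.06 ± 0.26 against bleomycin, adjusted p = 0.042; -1.40 and 0.00079 without LNP replicate 3). Spp1, osteopontin, and Tnc, tenascin C, rose by 6.02 ± 0.36 and 5.09 ± 0.38 (adjusted p = 3e-05 and 7.9e-05) and were lower in LNP lung than in bleomycin lung by 1.31 and 1.71, at log2 fold changes of -1.31 ± 0.30 and -1.71 ± 0.33 (adjusted p = 0.034 and 0.021). Leaving out LNP replicate 3 gave -1.54 and -2.0 (adjusted p = 0.0049 and 0.0022). Both stayed above control in LNP lung (4.71 ± 0.34 and 3.38 ± 0.36, adjusted p = 0.00018 and 0.0011). Spp1 was at 1945 ± 684 CPM in LNP and 74.4 ± 24.2 CPM in control lung, and Tnc at 250 ± 98.3 and 24.0 ± 1.48 CPM. Vtn, vitronectin, moved the other way, with 30.0 ± 8.44 CPM in control, 4.12 ± 0.4 in bleomycin and 9.57 ± 1.27 in LNP lung (-2.86 ± 0.22 after bleomycin, adjusted p = 8.4e-05; 1.21 ± 0.21 for LNP against bleomycin, adjusted p = 0.016, or 1.28 and 0.0032 without LNP replicate 3). Fn1 was higher and Vtn lower in LNP than in control lung (2.33 ± 0.27 and -1.65 ± 0.21, adjusted p = 0.0015 and 0.0026). In LNP against bleomycin, 1 ligand was higher and 4 were lower (background 4.28% and 1.87%), or 3 and 4 without LNP replicate 3. Against control 5 were higher and 1 lower (background 4.95% and 3.08%), or 7 and 2. Without that library, 24.7% and 10.9% of all genes tested were called in these 2 comparisons.

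Of 20 adaptor and focal adhesion genes, which tie integrin tails to actin, 5 rose and 4 fell after bleomycin, with a median of 0.19. Over all genes tested, 15.2% were called higher and 18.5% lower. Actn1, an actinin that crosslinks actin, went from 195 ± 21.9 to 525 ± 46.2 CPM (1.43 ± 0.19, adjusted p = 0.00069) and was at 281 ± 70.9 CPM in LNP lung (-0.90 ± 0.19 against bleomycin, adjusted p = 0.025; -1.10 and 0.00091 without LNP replicate 3). Parvg, the parvin of blood cells, rose by 0.52 ± 0.15 (adjusted p = 0.026) and Lims2, a partner of integrin-linked kinase, fell by 0.70 on the log2 scale (SE 0.19, adjusted p = 0.02). Parvg was also higher and Lims2 lower in LNP than in control lung (0.92 ± 0.15 and -0.85 ± 0.19, adjusted p = 0.007 and 0.027). Tns1, a tensin, was lower in LNP than in control lung (-0.74 ± 0.16, adjusted p = 0.02; -0.83 and 0.0044 without LNP replicate 3). In LNP against bleomycin edgeR called none of the 20 higher (background 4.28%), with an unadjusted p under 0.05 for 2 of them and a call by DESeq2 for 1. It called 2 lower (background 1.87%). Without LNP replicate 3 it called 1 higher and 8 lower, where 24.7% of all genes tested were called. Against control, 1 was higher and 3 were lower (background 4.95% and 3.08%). The counts were the same without LNP replicate 3, where 10.9% of all genes were called.

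Of 7 other laminin receptors and hemidesmosome genes, 2 rose and 1 fell after bleomycin (background 15.2% and 18.5%). The syndecan genes Sdc4 and Sdc1 rose by 1.08 ± 0.24 and 0.65 ± 0.20 (adjusted p = 0.0075 and 0.031), and Col17a1, a hemidesmosome collagen, went from 7.12 ± 1.22 to 1.20 ± 0.385 CPM (-2.57 ± 0.53, adjusted p = 0.0057). In LNP lung Sdc4 was lower than in bleomycin lung (-1.01 ± 0.24, adjusted p = 0.039; -1.03 and 0.018 without LNP replicate 3) and Col17a1 higher (2.30 ± 0.53, adjusted p = 0.035). The LNP libraries had 3.36, 2.83 and 11.5 CPM of Col17a1, with the highest value in LNP replicate 3, the library rich in basal and squamous markers. Without it Col17a1 was higher than in bleomycin lung by 1.37 (adjusted p = 0.0086) and lower than in control lung (-1.16, adjusted p = 0.036), where the value with all libraries was -0.27 (adjusted p = 0.79). The part of basal and squamous cells in these values was not tested. In LNP against bleomycin 1 of the 7 was higher and 1 lower (background 4.28% and 1.87%). Without LNP replicate 3 these were 1 and 2, where 24.7% of all genes tested were called. None of the 7 was called in edgeR for LNP against control, with an unadjusted p under 0.05 for 1 of them and a call by DESeq2 for 1. In the fit without LNP replicate 3, 2 were lower, where 10.9% of all genes tested were called.

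The remaining symbols were low. Itgb2l averaged 1.5 ± 0.34 CPM in control, 1.34 ± 0.849 in bleomycin and 0.373 ± 0.192 in LNP lung, with no call (-2.0 ± 0.57 for LNP against control, adjusted p = 0.061). Itgb3bp averaged between 1.70 and 2.25 CPM in the groups. Itgb1bp2 averaged 4.06 ± 1.12 CPM in control and 1.32 ± 0.803 CPM in bleomycin, with no overlap and no call (adjusted p = 0.29; lower at 0.016 without LNP replicate 3). In the LNP libraries it was at 1.29, 1.13 and 32.4 CPM.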

How the data were processed

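Poly(A) RNA of whole lung was sequenced as paired ends, per the labels' protocols. For each library the authors deposited whole-number gene counts, transcript counts and gene FPKM, per the file headers. Tools named in the submitters' processing notes are fastp, StringTie and edgeR, without versions. The aligner, genome build, strand setting and derivation of counts are not given in these sources, so overlapping, antisense and related genes (Itgb2 and Itgb2l) are uncertain.

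The members and gene lists were chosen with earlier results of these data known. Groups came from the labels. The deposited gene counts of all 9 libraries entered 1 fit in edgeR 4.0.16 (R 4.3.3), with TMM scaling, filterByExpr, a quasi-likelihood F test and Benjamini-Hochberg adjustment over 20794 genes, and calls at an adjusted p under 0.05. The 46941 transcripts tested were fitted alike. The script was tested on simulated counts. No libraries agreed within sampling noise (chi-square per degree of freedom at least 30.2). Values of every library are given for members called in at least 1 comparison whose highest group mean was at least 5 CPM, and of each pathway list up to 4 called genes with the smallest p are named. For 1 member, which is in all counts, its own values are not reported here. Exceptions are marked as chosen after their values were seen. Sequences are from RefSeq (GRCm38.p6) and GENCODE M21.

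Alternatives were DESeq2 1.42.0, relative log expression (RLE) scaling, no count filter, only the groups compared, a replicate block, limma 3.58.1 on log2(FPKM + 1) and, separately, log2(FPKM + 0.1), over 15478 genes averaging at least 0.5 FPKM, the former also without filter, and leaving out each library in turn. Python 3.11.15, pandas 2.3.3, SciPy 1.17.1 and matplotlib 3.10.9 served for tables and plots.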

Additional observations from a re-analysis of the deposited data

How the results depend on the processing

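No value of a member changed direction among called results under any alternative run. For bleomycin against control, all counts of members called stayed within 1.5 times the reported 17 higher and 6 lower, and 17 members passed under every other setting in which they were tested, leave-one-out fits aside. The LNP comparisons moved more. For LNP against bleomycin, the 2 higher members became 1 with only the groups compared, with limma on log2(FPKM + 1), on log2(FPKM + 0.1) and on log2(FPKM + 1) without filter. The 6 lower members became 2 without a count filter, 1 with only the groups compared, 11 with DESeq2 and 1 with limma without filter. For LNP against control, the 6 higher members became 3 with only the groups compared, 10 with DESeq2 and 3 with limma without filter, and the 2 lower became 1 with only the groups compared. The share of all genes called moved as well under these settings, from 17.9% to 42.5% after bleomycin, 1.6% to 14.8% for LNP against bleomycin and 3.85% to 13.2% for LNP against control. The causes were not tested. More genes were tested without a filter, and fits of 2 groups held fewer libraries.

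Leaving out each library in turn gave 12 to 20 higher and 5 to 9 lower members after bleomycin, 0 to 9 higher and 0 to 13 lower for LNP against bleomycin, and 3 to 10 higher and 1 to 3 lower for LNP against control. In the same fits the share of all genes called ran from 20.4% to 42.6%, from 0.475% to 24.7% and from 3.34% to 10.9%. The highest counts of both LNP comparisons, except the 3 lower against control, came without LNP replicate 3. For transcripts the ranges were 3 to 19 higher and 0 to 7 lower after bleomycin, 0 to 6 higher and 0 to 6 lower for LNP against bleomycin, and 0 to 6 higher and 0 lower for LNP against control, while the share of all transcripts called ran from 1.02% to 10.1%, from 0.0414% to 2.8% and from 0.0907% to 0.813%. An arm left with 2 libraries was tested with the spread of all groups.

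Deviations of same-numbered libraries from their group means correlated at -0.0176 to 0.04. This gave no sign that replicate numbers pair the samples, but with 3 libraries in each group it cannot exclude pairing. With the replicate number as a block, the counts were 15 higher and 5 lower after bleomycin, 1 and 0 for LNP against bleomycin, and 4 and 2 for LNP against control. In the same fit 29.5%, 2.08% and 5.38% of all genes tested were called, in this order of comparisons. Members under about 5 CPM, such as Itgad and Itgb3bp, are limited by depth.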
